A study of Mus musculus with 4 samples.

Results

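The cytoskeleton and nuclear lamina structural genes are the genes that build actin filaments, microtubules, intermediate filaments and the nuclear lamina, together with the proteins that cap, cross-link, move along or anchor these polymers. They were chosen by gene symbol alone, with symbol stems such as Act, Arpc, Tub, Tppp, Myo, Pdlim, Fln, Krt, Tpm and Lmn, and 58 of the 5807 genes in the deposited table matched. RefSeq holds 206 protein-coding mouse genes whose symbols match the same stems. The table lists only genes from the authors' own comparison of the tissues, and no listed gene has a deposited q-value of 0.05 or more, and the study's text adds a minimum fold on the authors' own scale, so every member entered through that comparison. That scale is not the one used here, on which 1943 of the 5807 listed genes lay within 2-fold. How these genes met the authors' minimum fold was not settled here. The study's text also counts fewer genes as higher in the pleural cavity than the 2468 with a log2 ratio above 0 here. The direction of a member with a small ratio above 0 may therefore differ on the authors' scale. A gene that is not listed, such as Actb, Cfl1, Coro1a, Vcl or Lmnb1, has no value and no direction here.

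The cells were eosinophils sorted from the marrow and from pleural lavage of wild-type mice that carried LLC (Lewis lung carcinoma, a mouse tumor line) in the pleural space, with 2 libraries sequenced per tissue. Whether a library pooled cells of several mice is not given in the sources used here. The study's methods give an age of 6 to 8 weeks and its legend gives day 2 after injection, and the sample titles and methods place the marrow cells in mice with LLC cells too. The study's text also calls the marrow cells naive, and which holds was not settled here. If they were naive, the tissue and the tumor cell injection cannot be told apart in these ratios. The bone marrow gate was CD45+SiglecF+ with high side scatter, after enrichment on F4/80, whereas the pleural cavity gate also required CD11b and F4/80 and excluded CD11c and high Gr1. The deposited values are the authors' mean reads over the libraries of a tissue, and values for single libraries are not used here, which leaves no spread between replicates and no test. Mean reads were divided by the summed mean reads of all listed genes, 15947438 in the pleural cavity and 11762543 in the marrow, and are given as reads per 1000000 listed reads (RPM) or as the fold between tissues on that scale. In bulk RNA of this kind, fewer cells that express a gene and less RNA per cell cannot be told apart.

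An eosinophil that leaves the marrow has to deform, crawl through vessel walls and hold its shape in a body cavity. Actin filaments branched by the Arp2/3 complex push the leading edge, myosins contract and carry load, and talin, zyxin and the PDZ-LIM proteins tie filaments to adhesion sites. Microtubules are polymers of alpha- and beta-tubulin pairs encoded by several similar genes, and the lamina, built from A-type and B-type lamins, sets how stiff the nucleus is. Granulocytes are known for soft, lobed nuclei with little A-type lamin.

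On the scaled reads 41 of the 58 members, 70.7%, had a ratio of pleural cavity over bone marrow above 0 on the log2 scale, against 42.5% of all listed genes. Among genes with at least 1000 mean reads in a tissue the shares were 82.5% of 40 members and 67.4% of listed genes. Past a difference of 2-fold, 19 members were on the pleural cavity side, where 16.0% of all 5807 listed genes lay, and 14 on the bone marrow side, where 50.5% of all listed genes lay. The median log2 ratio was 0.67 over the members and -1.02 over all listed genes. With the 4 members at 0 mean reads in a tissue set to a bound the members' median was also 0.67, as these lie in the tails and could not move it. Many listed genes with few reads were lower in pleural cavity eosinophils. Among genes with at least 1000 mean reads in a tissue the backgrounds were closer, with 14 of 40 members higher against 20.1% of 2618 genes and 4 of 40 lower against 21.8%, and with median log2 ratios of 0.78 and 0.47. The split depends on the scaling, since unscaled mean reads put 35 members higher and 13 lower past 2-fold, while setting the median of well-covered genes to 0 put 14 higher and 16 lower. The background moved as well. Of all listed genes, 30.4% were higher and 43.2% lower unscaled, and 9.01% and 57.3% with the median set to 0. Together the members took up 5.23% of the listed reads in the pleural cavity and 2.90% in the marrow.

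**Figure D1:**
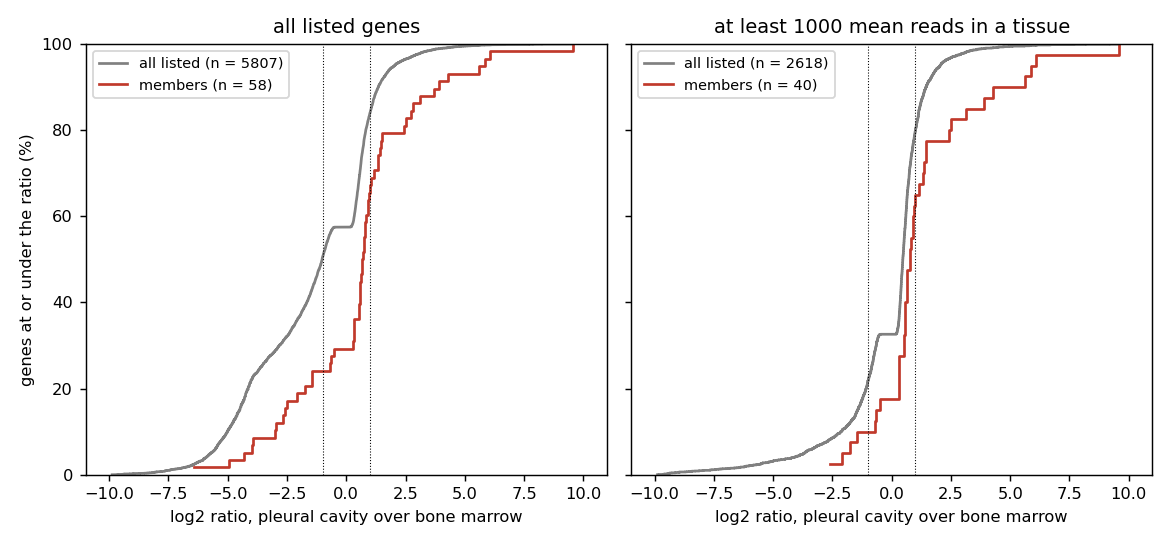
Cumulative share of genes (%) at or under each log2 ratio of pleural cavity over bone marrow eosinophils, for members (red) and all listed genes (grey), on the left over all 5807 listed genes and on the right over the 2618 with at least 1000 mean reads in a tissue; dotted lines mark a 2-fold difference. The members' curve lies to the right of the grey curve, with medians of 0.67 against -1.02 on the left and 0.78 against 0.47 on the right.

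Cell markers differed between the tissues too. Of the eosinophil markers, Siglecf had 21371 mean reads in the pleural cavity and 7106 in the marrow and Ccr3 had 67557 and 17178, whereas the granule genes Prg2 and Epx had 1482 against 555404 and 341.5 against 139062. All 10 neutrophil and precursor markers and all 8 markers of dividing cells, which include Mki67 and Top2a, were over 2-fold lower in pleural cavity eosinophils, the first list taking 0.228% of listed reads there and 11.2% in bone marrow eosinophils. Macrophage markers were listed for 8 of 12 genes and summed to 9904 and 9437 RPM in pleural cavity and bone marrow eosinophils. Much of each sum came from Adgre1 and Lyz2, which went in opposite directions. Adgre1 had 4635 RPM in the pleural cavity and 970 in the marrow, and Lyz2 had 3160 and 7441. The closeness of the sums therefore does not hold gene by gene. Marco, Adgre1, Csf1r and C1qb were over 2-fold higher in the pleural cavity, and Lyz2 and Mrc1 were over 2-fold lower. Of 9 mesothelial markers only Krt18 and Lrrn4 were listed, and all 4 listed fibroblast markers of 10, Col1a1, Col1a2, Col3a1 and Dcn, had at most 8 mean reads in pleural cavity eosinophils. Of 8 genes each, 3 platelet, 3 erythroid and 3 lymphocyte markers were listed, summing to 106, 0.188 and 32.0 RPM in the pleural cavity and 239, 40.1 and 906 in the marrow. Against these sums, the platelet marker Pf4 had 1069.5 and 62 mean reads, 12.7-fold higher in the pleural cavity, and the B cell marker Ms4a1 had 366 and 107. Most of the lymphocyte sum in the marrow came from Nkg7, at 887 RPM, whereas Cd3d and Ms4a1 were at 10.5 and 9.10 there. The part of these cells in the values below was not tested.

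**Figure D2:**
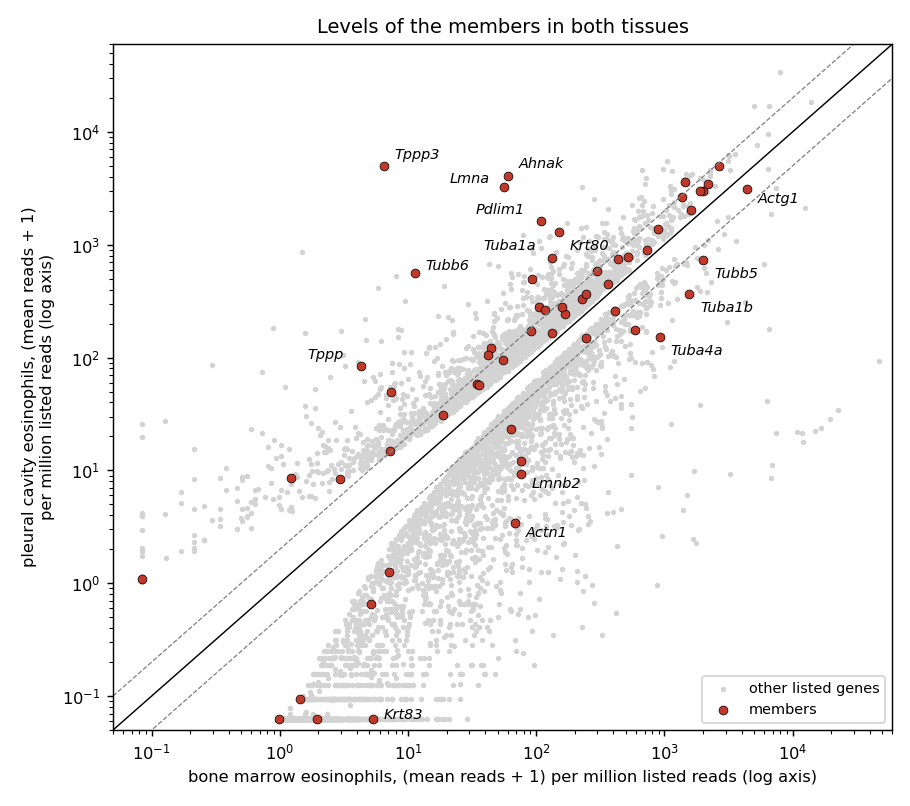
Reads per 1000000 listed reads, with 1 read added to each mean, in bone marrow (x axis, log) and pleural cavity eosinophils (y axis, log), with members in red and other listed genes in grey; the solid line marks equal levels and dashed lines 2-fold differences. Tppp3, Ahnak, Lmna and Tubb6 lie far above the line, and Tuba1b, Tuba4a and Tubb5 lie below it at high levels.

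Among members with at least 1000 mean reads in a tissue, the largest differences were in genes with few reads in the marrow and many in the pleural cavity. Tppp3, a tubulin polymerization-promoting protein that bundles microtubules, lies on the minus strand at chr8:105467493-105471526 of GRCm38. It had 79622 mean reads in the pleural cavity and 75.5 in the marrow, a 778-fold difference. Its marrow mean was fractional, as arises when reads are divided between similar genes, and values marked fractional here are uncertain for that reason. With 1 read added to each mean it ranked 1 of all 5807 listed genes by ratio, and by mean reads it ranked 12 in the pleural cavity and 4482 in the marrow. Its relative Tppp had 1334 and 50 mean reads and was 19.7-fold higher. Counting error alone, taken as an exact 95% binomial interval on the reads summed over 2 libraries, gives 16.1 to 24.3-fold for Tppp, and says nothing of the variation between mice.

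Ahnak, a giant scaffold protein beneath the plasma membrane, lies on the plus strand at chr19:8989284-9076914. It had 65168 mean reads in the pleural cavity and 713 in the marrow, a 67.4-fold difference. Its longest annotated transcript has 18100 bases, so its level per kilobase was 226 RPM in pleural cavity eosinophils, against 3576 for Tppp3 and 825 for Lmna.

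Lmna encodes the A-type lamins, and lies on the minus strand at chr3:88480147-88509956. It had 51954 mean reads in the pleural cavity and 660.5 in the marrow, which is 58.0-fold higher. Lmnb2, a B-type lamin gene, went the other way with 148 and 890 mean reads and was 8.15-fold lower. Per kilobase of longest transcript the levels were 14.2 for Lmna and 21.4 for Lmnb2, in RPM, in bone marrow eosinophils, so Lmnb2 was above Lmna, and 825 and 2.63 in pleural cavity eosinophils, where the order was opposite. Lmnb1, the other B-type gene, was not listed.

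Promoter sequence was looked at for members that stand out together. RefSeq promoter windows of 250 bases before to 50 bases after a start site were found for 47 of the 58 members, in 57 windows. The windows printed here are the 250 bases before the start for Ahnak and Tppp, whose RefSeq starts lie 0 and 12 bases from the annotated gene start, with each GC box (GGGCGG on either strand) in capitals.

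Ahnak, chr19:8989034-8989283, plus strand: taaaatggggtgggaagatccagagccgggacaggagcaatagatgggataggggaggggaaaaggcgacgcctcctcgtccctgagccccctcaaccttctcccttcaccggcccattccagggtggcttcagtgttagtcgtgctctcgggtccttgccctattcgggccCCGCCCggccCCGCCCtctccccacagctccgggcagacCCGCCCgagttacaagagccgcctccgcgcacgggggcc
Tppp, chr13:74009169-74009418, plus strand: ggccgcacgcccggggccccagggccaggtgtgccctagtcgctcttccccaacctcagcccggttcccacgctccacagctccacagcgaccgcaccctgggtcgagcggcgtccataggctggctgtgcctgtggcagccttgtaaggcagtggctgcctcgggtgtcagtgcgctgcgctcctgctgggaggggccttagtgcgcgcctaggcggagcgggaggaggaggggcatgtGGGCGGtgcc

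The Ahnak window held 3 GC boxes and the Tppp window 1. Of the members' windows 71.9% held a GC box in the 300 bases, against 54.3% of the windows of listed genes and 35.7% of all 32851 windows. The share was 63.2% of 19 windows for members over 2-fold higher and 90.0% of 10 windows for members over 2-fold lower. The CArG box, the motif known to be bound by serum response factor at many actin genes, was found at 2 members. It lay 90 bases before the start at Actg1 and 50 bases before it at Myl6. The CArG box was thus in 3.51% of the members' 57 windows, against 1.61% of the windows of listed genes and 1.63% of all windows. TATAAA was in 5 of the members' windows (8.77%, against 9.56% of the windows of listed genes and 13.6% of all). The GATA motif AGATAA was in 4 (7.02%, against 8.07% and 11.2%). The AP-1 motif TGANTCA was in 3 (5.26%, against 6.31% and 7.81%). Each was searched on both strands. For TATAAA, the GATA motif and the AP-1 motif the members' shares lay nearer those of the listed genes than those of all windows. These matches describe letters in the windows and not sites in use.

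Tubulin genes split by isotype. Of 4 alpha-tubulin genes listed, 1 was over 2-fold higher in pleural cavity eosinophils, 2 were over 2-fold lower, and Tuba8 lay just inside the limit. Of all listed genes 16.0% were over 2-fold higher and 50.5% over 2-fold lower. Tuba1a had 12253 mean reads in the pleural cavity and 1572 in the marrow, a 5.75-fold higher level. Tuba8 had 9301 and 3472 mean reads, 1.98-fold higher. In the other direction Tuba1b had 5815 and 18344 mean reads, 4.28-fold lower, and Tuba4a had 2405 and 10793, 6.08-fold lower. Per kilobase of longest transcript, Tuba1b made up 62.9% of the listed alpha-tubulin reads in the marrow and 22.1% in the pleural cavity, and Tuba1a 5.21% and 45.0%. Among the 4 listed alpha-tubulin genes, the leading one was thus Tuba1b in the marrow and Tuba1a in the pleural cavity. Other alpha-tubulin genes, such as Tuba1c, were not listed and have no value here, so their rank is unknown.

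Tuba1a and Tuba1b lie next to each other on the minus strand of chromosome 15, at chr15:98949837-98953703 and chr15:98931425-98934565, 15271 bases apart. Their coding sequences of 1353 bases are 98.3% identical, with a longest identical stretch of 281 bases, and the mean reads of both genes and of Tuba4a were fractional. How reads were divided between Tuba1a and Tuba1b therefore bears on their values. Both genes together had 18068 mean reads against 19916 in the marrow, which is 1.49-fold lower in the pleural cavity. Tuba4a and Tuba8 stand apart, with at most 85.1% and 79.6% identity to Tuba1b and Tuba1a and at most 81.1% to each other.

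Among the 5 listed beta-tubulin genes 3 were over 2-fold higher in pleural cavity eosinophils and 2 over 2-fold lower. Those sides held 16.0% and 50.5% of all listed genes. Tubb6, at chr18:67390717-67402749 on the plus strand, had 8874 mean reads in the pleural cavity and 132.5 in the marrow, a 49.4-fold difference. Tubb2a had 784.9 and 85.6 mean reads and was 6.76-fold higher, with fractional reads. Tubb4a had 16.5 and 0 mean reads, at least 4.06-fold higher at a floor of 3 reads. Tubb5 had 11781 and 23664 mean reads and was 2.72-fold lower, and Tubb4b had 2784 and 6942 and was 3.38-fold lower. Per kilobase, Tubb6 made up 0.562% of the listed beta-tubulin reads in the marrow and 43.0% in the pleural cavity, and Tubb5 66.6% and 37.9%, so Tubb6 led in the pleural cavity on that scale. In reads not divided by length Tubb5 led there, with 48.6% against 36.6% for Tubb6, and the order turned through the longest annotated transcripts of 2649 and 1758 bases.

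Beta-tubulin coding sequences are less alike than Tuba1a and Tuba1b, with 80.2% to 84.6% identity and no identical stretch longer than 53 bases between any pair of these 5 genes. The last 60 coding bases before the stop codon, which encode the acidic tail where tubulins differ most, are shown for 3 of them. Capitals mark bases that differ from Tubb5, or have no partner there, in a global alignment of the coding sequences.

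Tubb5, chr17:35834985-35835044, minus strand: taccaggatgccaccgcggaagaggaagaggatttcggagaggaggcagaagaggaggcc
Tubb4b, chr2:25222311-25222370, minus strand: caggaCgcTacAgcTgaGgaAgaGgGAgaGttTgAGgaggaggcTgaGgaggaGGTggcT
Tubb2a, chr13:34074471-34074530, minus strand: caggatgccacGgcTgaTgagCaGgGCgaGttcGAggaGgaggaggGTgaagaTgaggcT

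Tubb4b and Tubb2a differed from Tubb5 at 19 and 15 of these bases. Summed over the listed genes, both tubulin pools were lower in the pleural cavity, with 29773 against 34181 mean reads for alpha-tubulins and 24240 against 30823 for beta-tubulins, 1.56-fold and 1.72-fold lower after scaling. Tubg1, the gamma-tubulin that nucleates microtubules at centrosomes, had 373 and 742.5 mean reads and was 2.70-fold lower, with fractional reads.

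**Figure D3:**
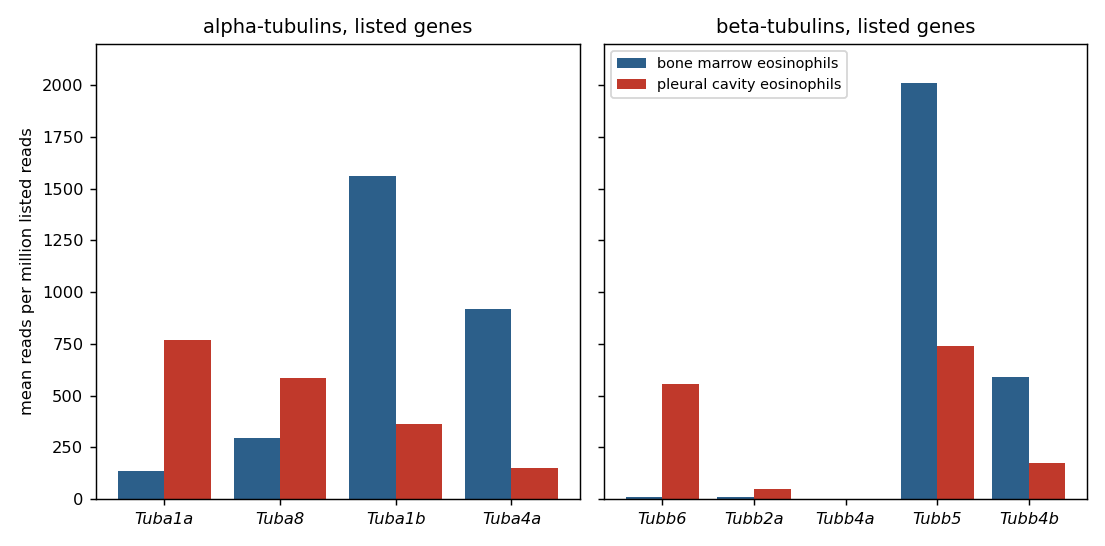
Mean reads per 1000000 listed reads (y axis) of each listed alpha- and beta-tubulin gene in bone marrow (blue) and pleural cavity eosinophils (red); each bar is the authors' mean over the libraries of a tissue, without error bars because no value per library is given. Tuba1a, Tuba8, Tubb6 and Tubb2a have the taller red bar, and Tuba1b, Tuba4a, Tubb5 and Tubb4b the taller blue bar.

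Of all listed genes 42.5% had a ratio above 0, 16.0% were over 2-fold higher and 50.5% over 2-fold lower. Genes outside the symbol rule that act on microtubules were listed for 24 of 42. Of these, 21 had a ratio above 0, with 2 over 2-fold higher and 3 over 2-fold lower. Those higher were the kinesin motor subunits Kif3a, with 1034 and 346.5 mean reads (fractional), and Klc1, with 2624 and 908. Stmn1, which sequesters tubulin and is also one of the dividing-cell markers, had 145.5 and 6504 mean reads and was 60.6-fold lower. Map7 had 7 and 80 and was 15.5-fold lower, and Hdac6, a tubulin deacetylase, was 2.36-fold lower. Of 26 nuclear envelope genes 14 were listed, with 6 having a ratio above 0, a median log2 ratio of -0.69, 1 over 2-fold higher and 3 lower. The one higher was Sun1, a lamin-binding protein that links the lamina to the cytoskeleton, with 4642 and 1197 mean reads, 2.86-fold higher. Its relative Sun2 had 483 and 791 and was 2.22-fold lower. Cbx5 and Syne3 were 7.43-fold and 7.64-fold lower, and Lbr, a receptor of B-type lamins known for its role in granulocyte nuclear shape, had 19391 and 11516 mean reads, 1.24-fold higher on this scale and lower with the median of well-covered genes set to 0.

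Members grouped by symbol as adhesion-linked all had a ratio above 0. Of the 8 listed, 6 were over 2-fold higher in pleural cavity eosinophils, where 16.0% of all listed genes lay. None was over 2-fold lower, where 50.5% of all listed genes lay. With the median of well-covered genes set to 0, only Pdlim1 and Pdlim4 stayed past 2-fold, at log2 ratios of 3.46 and 1.04. On that scaling 9.01% of all listed genes were over 2-fold higher. Pdlim1, a PDZ-LIM protein that binds alpha-actinin, had 25987 mean reads in the pleural cavity and 1278 in the marrow, 15.0-fold higher. The other Pdlim genes differed less, at 2.86-fold for Pdlim4 (132 and 34 mean reads), 2.55-fold for Pdlim5 (1690 and 489.5), 2.22-fold for Pdlim2 (4171 and 1383, fractional) and 1.76-fold for Pdlim7 (4464 and 1869). Zyx, a protein of mature focal adhesions, had 57105 and 16872 mean reads and was 2.50-fold higher, with fractional reads. Tln1, which activates integrins from the inside, had 22084 and 10541 and was 1.55-fold higher. Tlnrd1, placed in this group by its symbol alone, had 236.3 and 84.3, 2.07-fold higher and fractional. With 5 reads added to each mean Tlnrd1 lay just within 2-fold. Vcl and Vasp were not listed.

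Core actin genes differed little by comparison. Actg1, the gamma-actin gene, had 50012 mean reads in the pleural cavity and 52156 in the marrow, 1.41-fold lower after scaling and with fractional reads. The Arp2/3 subunits Arpc1b and Arpc2 were 1.87-fold and 1.57-fold higher, with 78956 against 31073 and 47477 against 22236 mean reads. Actr1a, which in spite of its actin-related name forms the dynactin filament that serves the microtubule motor dynein, had 5836 and 2900 and was 1.48-fold higher. Actr3b rested on few reads, with 0 and 10.5, at least 4.75-fold lower at a floor of 3 reads. Capg, which caps filament ends, had 14283 and 8600 mean reads and was 1.22-fold higher, a direction that turned with the median of well-covered genes set to 0. Cfl2, a cofilin that severs filaments, had 491.5 and 218, 1.66-fold higher.

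Some coronins, such as Coro1b, help turn over Arp2/3 branches. Coro2a had 4517 and 1228 mean reads and was 2.71-fold higher, whereas Coro1c (5231 and 2665) and Coro1b (7189 and 4255) were 1.45-fold and 1.25-fold higher, the latter turning with the median set to 0. Flna, a filamin that cross-links actin into gels, had 55009 and 25829 mean reads and was 1.57-fold higher. Actn1, an alpha-actinin that bundles filaments and is partner to Pdlim1, went the other way with 53.5 and 800.5 mean reads. It was 20.3-fold lower, opposite to Pdlim1. Actn4, another alpha-actinin gene, was not listed and has no value here. Of the tropomyosins, which coat filaments, Tpm3 had 42441 and 16263 mean reads (fractional) and Tpm1 932.5 and 404, which is 1.92-fold and 1.70-fold higher. Tpm2 had 0.5 and 16 mean reads, 43.4-fold lower with a counting interval of 7.25 to 1766, too wide to give its size.

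Of 12 listed myosin genes, with 1 light chain and 1 kinase among them, 1 was over 2-fold higher and 4 were over 2-fold lower. Those sides held 16.0% and 50.5% of all listed genes. The one over 2-fold higher was Mylk3, a myosin light chain kinase best known from heart muscle, with 7995 mean reads in the pleural cavity and 1087 in the marrow, 5.42-fold higher. The class I myosins of blood cells, Myo1f and Myo1g, had 32327 against 19085 and 11891 against 5124 mean reads, 1.25-fold and 1.71-fold higher, Myo1f turning with the median set to 0. Myl6, the essential light chain of nonmuscle myosin, had 47760 and 23659 and was 1.49-fold higher. Myh9, the nonmuscle heavy chain it binds, had 4157 and 4802 and was 1.57-fold lower, with fractional reads. With the median of well-covered genes set to 0, Myh9 lay past 2-fold lower, at a log2 ratio of -1.09. Myo1c was 1.88-fold higher (2747 and 1078, fractional), and the class IX myosins Myo9a and Myo9b were 1.61-fold (916.5 and 419) and 1.44-fold higher (3889 and 1988).

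Of the lower myosins, Myo5a, which carries vesicles and granules along actin, had 190.5 and 892 mean reads and was 6.35-fold lower. The mitochondrial Myo19 had 19.1 and 82.1, 5.83-fold lower with fractional reads. Myo18b had 0 and 22 mean reads, at least 9.94-fold lower at a floor of 3 reads.

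Keratins are the intermediate filaments of epithelia and are not usual genes of granulocytes, and 4 of 53 keratin genes that fit the rule were listed, all within a keratin cluster on chromosome 15. Krt80, at chr15:101347444-101370162 on the minus strand, had 20804 mean reads in the pleural cavity and 1756 in the marrow, 8.74-fold higher. Krt7, 40880 bases from Krt80, had 135.5 and 13.5 and was 7.40-fold higher, with a counting interval of 4.98 to 11.4. Krt18, at chr15:102028180-102032027, had 1918 and 518 and was 2.73-fold higher. Krt83, which lies between Krt7 and Krt18, had 0 and 61.5 mean reads, at least 27.8-fold lower at a floor of 3 reads. The other listed mesothelial marker, Lrrn4, had 57 and 170.5 mean reads and was 4.06-fold lower, opposite to Krt18. Per kilobase of longest transcript Krt80 was at 333 RPM in pleural cavity eosinophils, above Vim at 264 and Krt18 at 83.7. Vim, the intermediate filament gene usual in leukocytes, had 12319 and 6089 mean reads and was 1.49-fold higher.

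Spectrins, which form the membrane skeleton, lay within 2-fold and in opposite directions on the main scale. Sptan1 had 2630 and 1553 mean reads and was 1.25-fold higher, and Sptbn1 had 2399 and 2865 and was 1.62-fold lower. With the median of well-covered genes set to 0 both were lower, at log2 ratios of -0.12 for Sptan1 and -1.14 for Sptbn1, the latter past 2-fold.

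**Figure D4:**
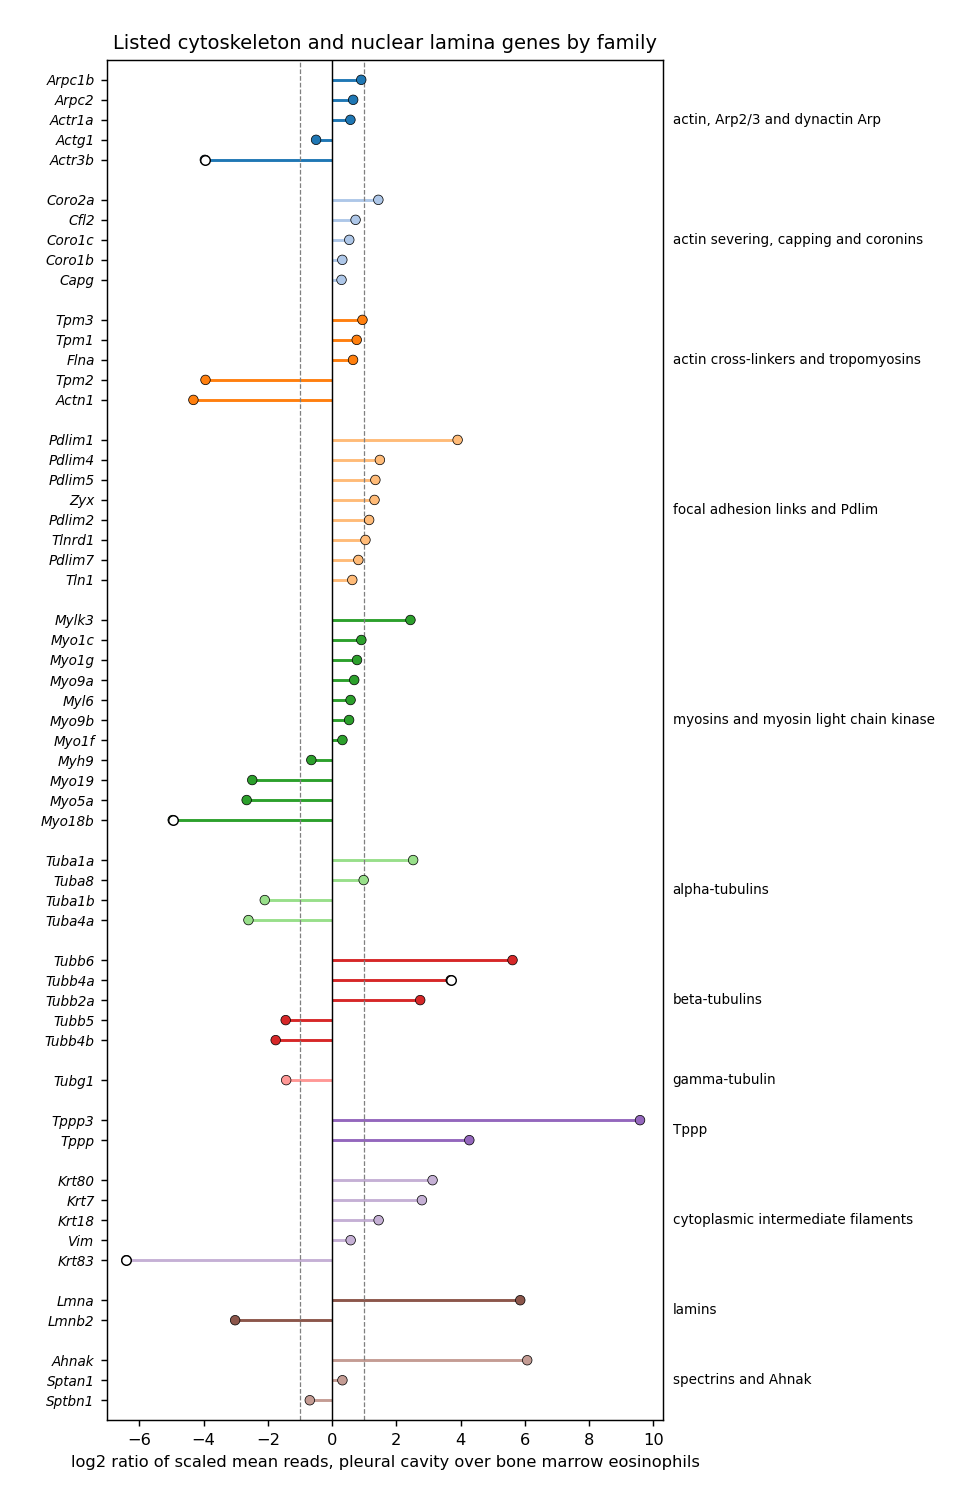
Log2 ratio of scaled mean reads of pleural cavity over bone marrow eosinophils (x axis) for 56 of the 58 members, grouped by family, with 1 read added to each mean; dashed lines mark 2-fold and open points are the 4 genes with 0 mean reads in a tissue, whose ratios depend on the added read. Genes grouped by symbol as focal adhesion links and Pdlim all lie to the right, from 0.63 for Tln1 to 3.91 for Pdlim1. Tubulins, lamins and keratins spread to both sides.

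Genes that regulate actin but fall outside the symbol rule were listed for 25 of 45. Of these, 20 had a ratio above 0, 9 were over 2-fold higher and 4 over 2-fold lower. The shares over all listed genes were 42.5%, 16.0% and 50.5%. Tagln2, an actin-binding calponin relative, had 72999 and 7848 mean reads and was 6.86-fold higher. Of that list, 3 other genes with large differences were lower, namely Marcks by 5.85-fold, Marcksl1 by 4.24-fold and Dstn, an actin-depolymerizing factor, by 3.76-fold with 5302 and 14701 mean reads. Among small GTPases that steer actin, their kinases and partners, 19 of 33 were listed, with 3 over 2-fold higher and 4 lower. Rhoc had 294.5 and 27 mean reads and was 8.05-fold higher, and the related Rhoa, which drives contraction, had 17282 and 5798. Dock2, an exchange factor for Rac in leukocyte migration, was 2.22-fold higher. Vav1 (fractional), Pak1 and Diaph2 (fractional) were 2.87-fold, 2.74-fold and 2.37-fold lower.

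Members that were higher and lower differed in how many reads they rested on. The 19 over 2-fold higher summed to 344696 mean reads in the pleural cavity and 28032 in the marrow, and the 14 over 2-fold lower to 23579 and 63318. Median length of the longest transcript was 3188 bases for the higher, 2745 for the lower and 3386 over the 5656 listed genes with an annotation match. Mean reads were fractional for 14 of the 58 members, 24.1%, against 25.8% of all listed genes. An exon of 22 members is overlapped by another annotated gene, among them Krt80, Tuba1a, Tuba1b and Zyx, and whether counting used strand is not given in the sources used here.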

How the data were processed

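RNA from sorted eosinophils was sequenced as 2 libraries per tissue. Per the study's methods and labels, the authors trimmed reads with SOAPnuke, aligned them to GRCm38 with HISAT2 2.1.0, mapped them to genes with Bowtie2 2.2.5 and estimated counts with RSEM 1.2.8. The deposited columns of mean reads hold expected counts that the authors averaged within a tissue without depth scaling. Log2 fold changes and p-values of the authors' own DESeq2 comparison were left out, and the deposited q-values were read only to check which genes are listed. The number of columns with values per library left unused was 0, so genes were counted without a test, and depth per library is unknown. Intervals cover counting error only.

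Mean reads were scaled to the total of the listed genes, which moves with the abundant granule genes of the bone marrow libraries. Log2 ratios have 1 read added to each mean, and folds have none. Genes with a mean of 0 are given as bounds at a floor of 3 reads. Fractional means arise when RSEM divides reads between similar genes. Genes were counted past 2-fold. Named genes were the members, except a few results that are not reported here, and, from each fixed list, up to 4 with the largest ratio and at least 50 mean reads in a tissue, with Klc1, Lbr, Rhoa and Dock2 named after their values were seen. Members and lists were chosen with earlier results of these data known. Coordinates and lengths come from GENCODE vM21 on GRCm38 (the authors used a later release), matched by Ensembl identifier for all 58 members, and promoters from RefSeq GRCm38.p6. Tables were computed with pandas 2.3.3 and numpy 2.4.6, intervals with scipy 1.17.1 and plots with matplotlib 3.10.9, all under Python 3.11.15. The computation of ratios was also run on simulated reads with known folds and counting error only. For the scaling to listed totals, the direction of the ratios was checked there and their size was not held to a limit.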

Additional observations from a re-analysis of the deposited data

How the results depend on the processing

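Counts of members past the threshold were 19 higher and 14 lower. The higher count became 35 with unscaled mean reads, 32 past 1.5-fold and 12 past 4-fold (30.4%, 29.3% and 5.22% of all listed genes). The lower count became 4 among genes with at least 1000 mean reads in a tissue, where 21.8% of listed genes were lower. This filter was chosen after seeing the data and leaves 40 members. The median log2 ratio of 0.67 became 1.11 with unscaled reads, 0.23 with the median of well-covered genes set to 0, 0.78 with a trimmed mean of ratios set to 0, 0.39 with totals that leave out the eosinophil and neutrophil marker genes (chosen after seeing the data), 0.71 with at least 50 mean reads in a tissue, 0.78 with at least 1000, and 0.65 without fractional genes. The 4 scalings, each of which subtracts a constant, moved the median of all listed genes by 0.44, -0.44, 0.11 and -0.28 on the log2 scale, and the filters test fewer genes. Over all listed genes, the count over 2-fold higher of 929 became 1768 unscaled and 523 with the median set to 0. Setting the median to 0 turned the sign of 4 members, to -0.15 for Capg, -0.13 for Coro1b, -0.12 for Myo1f and -0.12 for Sptan1, and under the other scalings and added reads of 0.5 and 5 no member changed sign. No paired analysis was possible because the columns hold means per tissue and carry no replicate number, and leaving out a replicate, edgeR and DESeq2 could not be run for the same reason. With few reads, as for Tpm2, Krt83, Actr3b, Myo18b and Tubb4a, the size of a difference is not resolved.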

Other observations

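The septin genes, which encode GTP-binding filament proteins, carry the symbol form Septin in the table and so fall outside the stem Sept followed by a number. Of the 7 listed, 2 were over 2-fold higher in pleural cavity eosinophils, 1 was over 2-fold lower, and 5 had a ratio above 0. The shares over all listed genes were 16.0%, 50.5% and 42.5%. Septin11 had 4803 mean reads in the pleural cavity and 669.8 in the marrow, 5.29-fold higher (fractional), and Septin8 had 244.5 and 75, 2.40-fold higher. Septin5 had 287.2 and 750.7 and was 3.54-fold lower (fractional). Septin9 and Septin2, with the most reads, had 10326 against 5214 and 9815 against 5249 mean reads and were 1.46-fold and 1.38-fold higher. These genes were named after their values were seen.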
